A study of Mus musculus with 10 samples.

Results

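The genes described here are 35 genes of pyruvate entry and the TCA cycle, compared between bone marrow-derived macrophages (BMDMs) of WT and Rac2-/- mice. They were chosen by name, with earlier results of these data known. They encode the mitochondrial pyruvate carrier, the pyruvate dehydrogenase complex with its kinases and phosphatases, and the enzymes of the cycle. They also encode the enzymes that feed the cycle and the enzyme that cleaves exported citrate. Of these, 34 were measured and tested, among 16882 named genes tested in all. Mpc2, a subunit of the pyruvate carrier, was not analysed here because no feature was assigned to that symbol alone.

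Pyruvate from glycolysis crosses the inner mitochondrial membrane through the pyruvate carrier and is turned into acetyl-CoA by the pyruvate dehydrogenase complex. The kinases Pdk1 to Pdk4 phosphorylate this complex and switch it off, and the phosphatases Pdp1 and Pdp2 switch it on again. The TCA cycle oxidizes acetyl-CoA and supplies citrate, oxoglutarate and other building blocks, and the reactions that refill it are called anaplerosis. In macrophages the cycle is known to be rerouted during inflammatory activation, with citrate drawn off for lipid and itaconate synthesis and with accumulation of succinate.

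Affymetrix mouse whole-transcript arrays were hybridized with RNA of 5 WT and 5 Rac2-/- BMDM samples, numbered 1 to 5 in each group. Both groups were male C57BL mice of unstated age. The methods describe the Rac2-/- line on a C57BL/6J background with littermates as controls. Rac2-/- mice carried a homozygous deletion of Rac2, a small GTPase of blood cells, in the whole animal and not in macrophages alone. Marrow cells of both groups were grown in 50 ng/ml MCSF, the growth factor of macrophages, for 7 days with 20% serum and 16% oxygen, and received no other treatment. The labels give 8 days of culture and over 80% Mac1-positive cells. The series design names 5 mice for each genotype, without tying an array to a mouse. Precision was limited by the 5 arrays in a group, and p-values measured the spread between these arrays.

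The deposited values are log2 values from RMA, a method that subtracts background, equalizes the distributions of the arrays and combines the probes of a feature. All differences below are WT minus Rac2-/- on this log2 scale, so that a negative difference is a higher level in Rac2-/- BMDMs. The values of different genes come from different probes and only their differences are compared.

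Rac2 was 11.81 to 12.42 in WT and 6.80 to 7.54 in Rac2-/- arrays. The mean of 10 macrophage markers was 11.66 to 12 in WT and 11.75 to 12.07 in Rac2-/- arrays. Its members went both ways. Mrc1 was called higher in Rac2-/- (difference -0.66, adjusted p = 0.00352), and the groups did not overlap for Itgam (-0.33), Fcgr1 (0.74) or Cd68 (0.22), which were not called. Arrays 1 and 2 stood apart from arrays 3 to 5 in both groups. They are called array sets here, as neither the labels nor the files name a batch. Of the 34 genes, 10 were higher in arrays 1 and 2 by over 0.5 (up to 1.25 for Dld) and 4 were lower by over 0.5 (down to -1.42 for Got2). Arrays 3 and 4 of each group were also unusually alike. Over 9364 features with a mean above 8, the SD of their differences was 0.0996 in WT and 0.126 in Rac2-/-, against 0.185 to 0.324 in the other pairs of the same group and set. For the 34 genes, arrays 3 and 4 differed by at most 0.22 in WT and 0.29 in Rac2-/-, and arrays 3 and 5 by up to 0.55 and 0.64. The labels do not say whether arrays 3 and 4 share a culture or RNA, in which case the p-values from all 10 arrays would be too small, and results are therefore also given with these arrays averaged.

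The promoters of Fh1, Idh2 and Dlst are shown because these genes had the smallest adjusted p-values of the 34, with all 5 Rac2-/- arrays above all 5 WT arrays. Each window is RefSeq sequence of GRCm38.p6, from 250 bases before to 50 bases after the annotated start, 5′ to 3′ on the strand of the gene. The Fh1 window lies at chr1:175625586-175625885 on the minus strand with a GC content of 54.3%. The Idh2 window lies at chr7:80115301-80115600 on the minus strand with a GC content of 68.3%, and its start is 3258 bases inside the annotated edge of the gene. The Dlst window lies at chr12:85110583-85110882 on the plus strand with a GC content of 65.7%. Capitals mark GCGTG, a form of the hypoxia response element core, in Fh1 and Idh2, and the reverse complement of CCGGAAG, an ETS site, in Dlst.
Fh1: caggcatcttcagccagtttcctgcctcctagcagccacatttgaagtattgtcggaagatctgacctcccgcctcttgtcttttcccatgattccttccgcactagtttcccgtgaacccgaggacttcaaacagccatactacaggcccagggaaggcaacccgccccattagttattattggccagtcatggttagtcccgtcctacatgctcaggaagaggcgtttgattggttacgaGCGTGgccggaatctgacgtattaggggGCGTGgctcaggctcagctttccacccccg
Idh2: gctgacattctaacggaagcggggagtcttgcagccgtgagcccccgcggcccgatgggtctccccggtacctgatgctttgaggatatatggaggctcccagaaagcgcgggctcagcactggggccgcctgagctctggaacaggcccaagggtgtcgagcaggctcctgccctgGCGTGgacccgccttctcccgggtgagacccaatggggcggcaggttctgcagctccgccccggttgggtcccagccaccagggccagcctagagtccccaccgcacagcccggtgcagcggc
Dlst: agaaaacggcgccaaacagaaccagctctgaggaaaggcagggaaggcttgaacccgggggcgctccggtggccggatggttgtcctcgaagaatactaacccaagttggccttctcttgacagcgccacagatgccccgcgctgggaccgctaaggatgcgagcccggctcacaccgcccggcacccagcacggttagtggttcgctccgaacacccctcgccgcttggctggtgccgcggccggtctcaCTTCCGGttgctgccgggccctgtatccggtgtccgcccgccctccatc

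Motifs were searched on both strands of the windows of 32 of the 35 genes that had one, and of all 32851 windows. A gene was counted if any of its windows held the motif, while the share of all is over single windows. The counts and the shares are therefore not like for like. GCGTG was present for 19 of 32 genes and in 32.4% of all windows, with 2 matches in Fh1 and 1 in Idh2. The other form of this core, ACGTG, was present for 10 of 32 genes and in 19.6% of all windows. The E-box CACGTG, which contains ACGTG, was present for 4 of 32 genes and in 7.15% of all windows. CCGGAAG was present for 5 of 32 genes and in 8.86% of all windows. The NRF1 site in its palindromic form and the estrogen-related receptor element TCAAGGTCA were present for 0 of 32 genes. They were in 0.971% and 0.423% of all windows. A match is a description of letters in these windows and says nothing about binding.

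The means of 30 of the 34 genes were higher in Rac2-/- than in WT BMDMs, against 49.9% of all tested features. The median difference was -0.18, and that of all tested features was 0.00034. The median size of the difference was 0.23 for the 34 genes and 0.1 for all features. The 4 genes with higher means in WT were Pdp1, Pdp2, Suclg2 and Got1. In limma with Benjamini-Hochberg adjustment over all tested features and a threshold of 0.05, 2 of the 34 genes were higher in Rac2-/-, Fh1 and Idh2, where 0.795% of all features were called in this direction. None was called higher in WT (0 of 34), where 1.11% of all features were called, and 1 of the 34 was higher in WT at an unadjusted p under 0.05, against 5.3% of features. In the other direction 10 of the 34 passed the unadjusted threshold, against 5.06% of features. Because fewer cells of a type and less RNA per cell cannot be told apart in such cultures, these are differences in level in the whole culture.

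**Figure D1:**
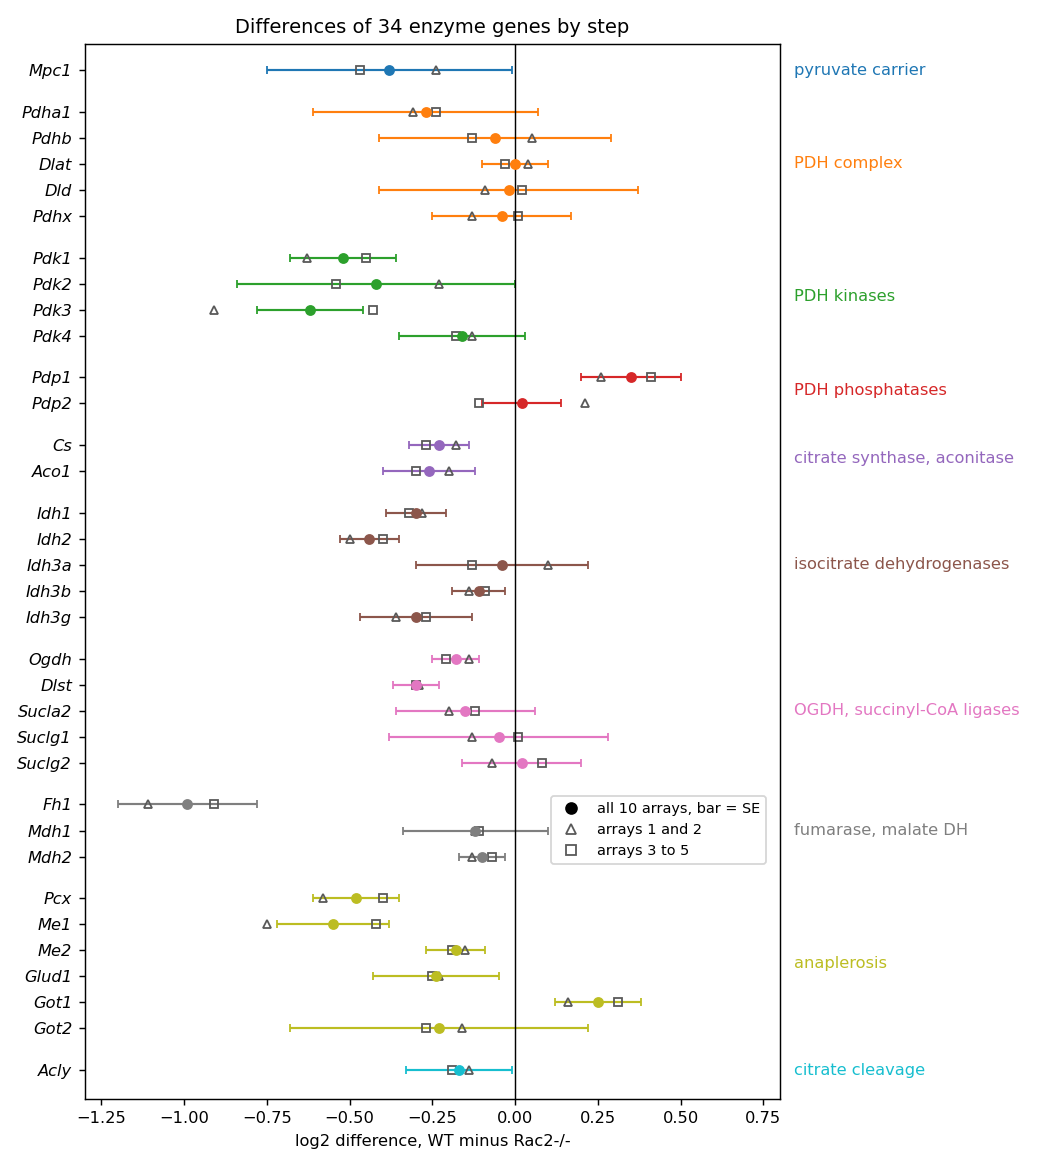
The log2 difference, WT minus Rac2-/-, of each of the 34 genes (horizontal axis), with genes grouped by step on the vertical axis. Filled circles with bars are the limma difference and its SE over all 10 arrays, open triangles are arrays 1 and 2 and open squares arrays 3 to 5; 30 of 34 circles lie at or below 0, and Fh1 lies farthest from it at -0.99.

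With the replicate number as a block, 7 of the 34 genes were called, all of them higher in Rac2-/-, where 3.32% of all features were called in that direction. These were Fh1, Idh2, Dlst, Idh3g, Pdk3, Aco1 and Pcx. The labels do not say whether the numbers pair the arrays. With the array set as a term in the fit, 13 genes were called higher in Rac2-/- (4.98% of all features) and 2 higher in WT (4.36% of all features). With ComBat on the array sets, 17 were called higher in Rac2-/- (8.7% of all features) and 2 higher in WT (7.52% of all features). The limma fit after ComBat did not count the removal of the sets, so its p-values are too small. With arrays 3 and 4 averaged, limma called 0 of the 34 genes (0.363% of all features in either direction), and with the array set as a term as well it called Fh1, Dlst and Idh3g (1.9% of all features higher in Rac2-/-). Of the 7 genes called with the block, 1, Fh1, was called with the block once these arrays were averaged (0.633% of all features higher in Rac2-/-).

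Within both array sets, all Rac2-/- arrays lay above all WT arrays for 15 of the 34 genes, against 7.71% of all features. The opposite order within both sets was seen for Got1 alone, against 6.19% of all features. The differences had the same sign in both sets for 26 genes, 24 higher in Rac2-/- and 2, Pdp1 and Got1, higher in WT. They had opposite signs for the other 8, which were Pdhb, Dlat, Dld, Pdhx, Pdp2, Idh3a, Suclg1 and Suclg2. Whether a difference changed between the array sets was tested in limma, and 0 of 34 genes were called after adjustment. The adjusted test called 0% of all features, so it says nothing particular about these genes. At an unadjusted p under 0.05 it was 0 of 34, against 5.77% of all features. With so few arrays in a set, a change can be missed.

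**Figure D2:**
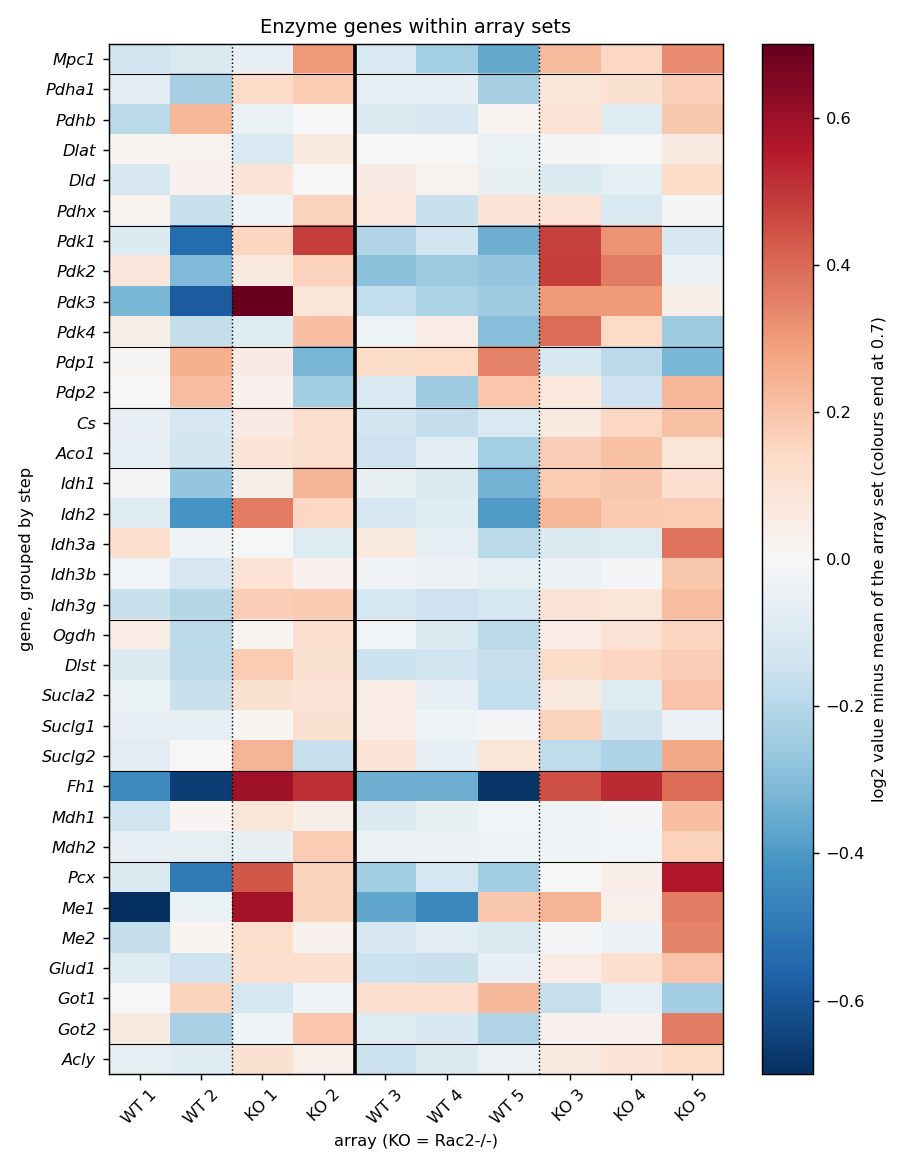
Log2 values of the 34 genes after subtracting the mean of the array set, with genes as rows grouped by step and the 10 arrays as columns. The thick line parts arrays 1 and 2 from arrays 3 to 5 and colours end at 0.7; Fh1 is below the set mean in all WT and above it in all Rac2-/- arrays.

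At the entry of pyruvate, Mpc1, a subunit of the carrier, differed by -0.38 (SE 0.37) and was not called in limma (adjusted p = 0.947). It lay between 9.64 and 10.85 in WT and between 9.72 and 11.29 in Rac2-/- arrays. The Rac2-/- arrays were above the WT arrays within both sets, and Mpc1 was called with the array set as a term (adjusted p = 0.0267). This call was lost once arrays 3 and 4 were averaged (0.109).

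The 5 genes of the pyruvate dehydrogenase complex had a median difference of -0.04, and none was called in limma with or without the block. Pdha1, the catalytic alpha subunit of the decarboxylase, had the largest difference of the 5, at -0.27 (SE 0.34). It passed with the array set as a term (adjusted p = 0.0221), with differences of -0.31 in arrays 1 and 2 and -0.24 in arrays 3 to 5. Pdha1 did not pass with this term once arrays 3 and 4 were averaged (0.0711). The beta subunit Pdhb differed by -0.06 (SE 0.35), the acetyltransferase Dlat by 0.00 (SE 0.10), the lipoamide dehydrogenase Dld by -0.02 (SE 0.39) and the binding component Pdhx by -0.04 (SE 0.21).

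All 4 pyruvate dehydrogenase kinases had higher means in Rac2-/-, with a median difference of -0.47, and both phosphatases had higher means in WT. Of all tested features, 49.9% had higher means in Rac2-/-. No kinase passed in limma over all 10 arrays. With the block 1 of the 4 was called, Pdk3, where 3.32% of all features were called higher in Rac2-/-. With the array set as a term 2 of the 4 were called, Pdk1 and Pdk3, against 4.98% of all features. Neither was called with this term once arrays 3 and 4 were averaged.

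Pdk3, a kinase known for its high activity toward the complex, was 8.89, 8.63, 9.25, 9.20 and 9.17 in WT arrays 1 to 5 and 10.03, 9.30, 9.72, 9.72 and 9.46 in Rac2-/- arrays 1 to 5. All Rac2-/- arrays lay above all WT arrays, with Rac2-/- array 1 the highest. The difference was -0.62 (SE 0.16), a 1.54-fold higher level in Rac2-/-, with an adjusted p of 0.106 in limma and 0.0352 with the block. It was not called once arrays 3 and 4 were averaged (0.327, 0.111 with the block and 0.107 with the array set as a term). The difference was -0.91 in arrays 1 and 2 and -0.43 in arrays 3 to 5.

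Pdk1, a kinase induced under hypoxia, was 8.83, 8.39, 8.45, 8.52 and 8.31 in WT and 9.08, 9.41, 9.13, 8.97 and 8.54 in Rac2-/- arrays. The groups overlapped only through Rac2-/- array 5, which lay below WT array 1. The difference was -0.52 (SE 0.16), with an adjusted p of 0.177 in limma, 0.0601 with the block and 0.0357 with the array set as a term. Without Rac2-/- array 5 it was -0.65 and the adjusted p was 0.0443. This was the only 1 of the 10 fits leaving out an array in which Pdk1 passed (adjusted p up to 0.363). Pdk1 was not called once arrays 3 and 4 were averaged (0.538, 0.176 with the block and 0.13 with the array set as a term).

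Pdk2, a kinase of many tissues, was 7.77, 7.38, 8.71, 8.75 and 8.73 in WT and 7.76, 7.85, 9.48, 9.36 and 8.96 in Rac2-/- arrays. Its values differed more between the array sets than between the genotypes, and in arrays 3 to 5 the Rac2-/- values were the higher. The difference was -0.42 (SE 0.42) with an adjusted p of 0.951, and 0.0535 with the array set as a term. Pdk4, which is induced by fasting and fatty acids in other tissues, was 5.24, 5.03, 5.60, 5.68 and 5.33 in WT and 5.11, 5.41, 6.02, 5.77 and 5.38 in Rac2-/- arrays. Its groups overlapped within both sets, and the difference of -0.16 (SE 0.19) was not called (adjusted p = 0.974).

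The phosphatase Pdp1 differed in the direction opposite to the kinases. It lay between 9.25 and 9.96 in WT and between 8.92 and 9.50 in Rac2-/- arrays. The difference of 0.35 (SE 0.15) had an adjusted p of 0.449 in limma and 0.0468 with the array set as a term. With arrays 3 and 4 averaged, the fit with this term no longer called Pdp1 (0.15). Pdp2 differed by 0.02 (SE 0.12), at 0.21 in arrays 1 and 2 and -0.11 in arrays 3 to 5.

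At the start of the cycle, Cs (citrate synthase) and Aco1 were above the WT arrays in all Rac2-/- arrays of each set. Aco1 is the cytosolic aconitase, which without its iron-sulfur cluster acts as iron regulatory protein. It was 9.27, 9.21, 8.80, 8.87 and 8.71 in WT and 9.43, 9.45, 9.12, 9.15 and 9.03 in Rac2-/- arrays. Arrays 1 and 2 were the higher in both genotypes, and the groups overlapped over all 10 arrays but not within a set. The difference was -0.26 (SE 0.14), with an adjusted p of 0.612 in limma and 0.0452 with the block, and 0.158 with the block once arrays 3 and 4 were averaged. Cs differed by -0.23 (SE 0.09), with an adjusted p of 0.363 in limma, 0.0726 with the block and 0.0234 with the array set as a term. Once arrays 3 and 4 were averaged, Cs was not called with this term (0.107).

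All 5 isocitrate dehydrogenase genes had higher means in Rac2-/-, with a median difference of -0.30. Idh2 was called in limma (0.795% of all features higher in Rac2-/-) and Idh2 and Idh3g with the block (3.32% of all features).

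Idh2, the mitochondrial NADP-dependent isocitrate dehydrogenase, was 9.85, 9.53, 9.84, 9.87 and 9.56 in WT and 10.30, 10.09, 10.19, 10.14 and 10.13 in Rac2-/- arrays. The groups did not overlap, and the lowest Rac2-/- array lay above the highest WT array. Idh2 was 1.36-fold higher in Rac2-/-, a difference of -0.44 (SE 0.09) with an adjusted p of 0.0458 in limma and 0.0185 with the block. The call was lost when any of the 10 arrays was left out (adjusted p from 0.0603 to 0.12) and when arrays 3 and 4 were averaged (adjusted p = 0.174, 0.0534 with the array set as a term and 0.0628 with the block). The difference itself was -0.50 in arrays 1 and 2 and -0.40 in arrays 3 to 5.

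Idh1, the cytosolic NADP-dependent enzyme, was 12.09, 11.83, 11.94, 11.89 and 11.66 in WT and 12.14, 12.34, 12.17, 12.18 and 12.11 in Rac2-/- arrays. The groups did not overlap, although WT array 1 lay close to the Rac2-/- arrays. The difference of -0.30 (SE 0.09) was not called in limma (adjusted p = 0.172) or with the block (0.0828). It was called with the array set as a term (0.0383), but not once arrays 3 and 4 were averaged (0.127).

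Idh3a, Idh3b and Idh3g encode the subunits of the NAD-dependent enzyme of the cycle. Idh3g, a regulatory subunit, was 10.95, 10.91, 11.51, 11.49 and 11.51 in WT and 11.28, 11.29, 11.73, 11.72 and 11.85 in Rac2-/- arrays. All Rac2-/- arrays lay above the WT arrays of their own set. The difference was -0.30 (SE 0.17), with an adjusted p of 0.684 in limma and 0.0313 with the block. With arrays 3 and 4 averaged it was 0.922, 0.101 with the block and 0.0343 with the array set as a term, so that the call of the block was lost. The catalytic subunit Idh3a differed by -0.04 (SE 0.26) and Idh3b by -0.11 (SE 0.08), and neither was called in any of these fits.

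Of the 5 genes of oxoglutarate dehydrogenase and the succinyl-CoA ligases, 4 had higher means in Rac2-/-, and the median difference was -0.15. Dlst, the succinyltransferase of the oxoglutarate dehydrogenase complex, was 9.38, 9.30, 9.42, 9.43 and 9.41 in WT and 9.66, 9.59, 9.70, 9.72 and 9.74 in Rac2-/- arrays. The groups did not overlap and each spanned a narrow range. The difference was -0.30 (SE 0.07), a 1.23-fold higher level in Rac2-/-, with an adjusted p of 0.0531 in limma and 0.0265 with the block. With arrays 3 and 4 averaged the adjusted p was 0.25, with the block 0.106 and with the array set as a term 0.0386, so the block no longer gave a call. The difference was -0.29 in arrays 1 and 2 and -0.30 in arrays 3 to 5.

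The decarboxylase Ogdh of the same complex differed by -0.18 (SE 0.07, adjusted p = 0.414). The succinyl-CoA ligase subunits Sucla2, Suclg1 and Suclg2 differed by -0.15 (SE 0.21), -0.05 (SE 0.33) and 0.02 (SE 0.18), and none of the 3 was called in limma, with the block or with the array set as a term. Suclg2 was measured by more than 1 feature, of which the one with the highest mean was used.

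Fh1 (fumarase, which hydrates fumarate to malate) had the largest difference of the 34 genes. It was 9.73, 9.52, 9.21, 9.21 and 8.87 in WT and 10.77, 10.69, 10, 10.07 and 9.94 in Rac2-/- arrays. The groups did not overlap, and within each group arrays 1 and 2 were the highest. Fh1 was 1.98-fold higher in Rac2-/-, a difference of -0.99 (SE 0.21) with an adjusted p of 0.0466 in limma and 0.0022 with the block. The difference was -1.11 in arrays 1 and 2 and -0.91 in arrays 3 to 5.

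The call of Fh1 in the fit without a block rested on the arrays used. It passed in 2 of the 10 fits that left out an array (adjusted p from 0.0434 to 0.129) and not with arrays 3 and 4 averaged (0.195). With these averaged it passed with the array set as a term (0.00355) and with the block (0.0148). The malate dehydrogenases Mdh1 (cytosolic) and Mdh2 (mitochondrial) differed by -0.12 (SE 0.22) and -0.10 (SE 0.07) and were not called in any of these fits.

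**Figure D3:**
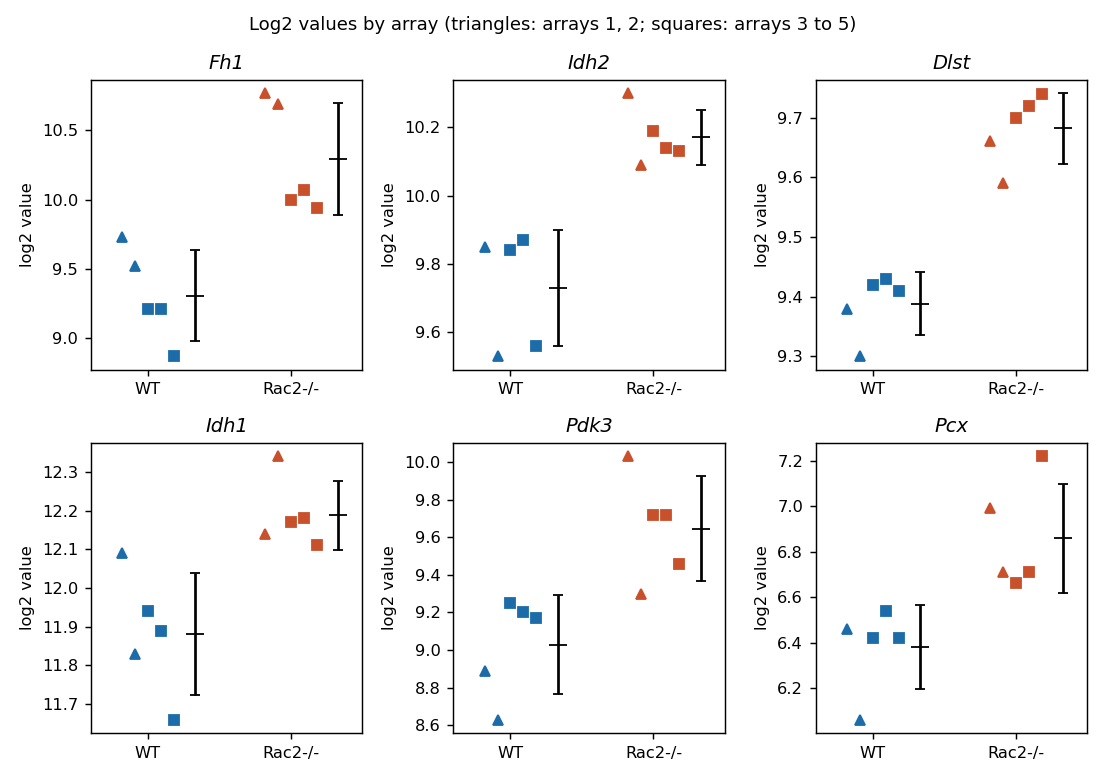
Log2 values (vertical axis, a separate scale for each gene) of the 6 genes for which all 5 Rac2-/- arrays lay above all 5 WT arrays. Triangles are arrays 1 and 2, squares arrays 3 to 5, and the bar beside each group is its mean ± SD (n = 5); the groups do not overlap in any of the 6, and Fh1 shows the largest difference of the means.

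Those 6 genes were Fh1, Idh2, Dlst, Idh1, Pdk3 and Pcx, 6 of 34 against 2.18% of all features. The opposite order of the groups was seen for 0 of 34, against 2.34% of all features.

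Of the 6 genes of anaplerosis and the malic enzymes, 5 had higher means in Rac2-/- and the median difference was -0.23. Pcx, the pyruvate carboxylase that makes oxaloacetate from pyruvate, was 6.46, 6.06, 6.42, 6.54 and 6.42 in WT and 6.99, 6.71, 6.66, 6.71 and 7.22 in Rac2-/- arrays. The groups did not overlap, with WT array 2 the lowest and Rac2-/- array 5 the highest. The difference was -0.48 (SE 0.13), with an adjusted p of 0.134 in limma and 0.0485 with the block, and 0.0924 with the block once arrays 3 and 4 were averaged.

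The malic enzyme Me1, a cytosolic source of NADPH, differed by -0.55 (SE 0.17) and was not called in limma (adjusted p = 0.206), with the block (0.109) or with the array set as a term (0.0781). It was also measured by more than 1 feature. The mitochondrial malic enzyme Me2 differed by -0.18 (SE 0.09, adjusted p = 0.634). Glud1, the glutamate dehydrogenase that yields oxoglutarate, differed by -0.24 (SE 0.19). It was called with the array set as a term (adjusted p = 0.0202) but not with the block (0.0506). With arrays 3 and 4 averaged, the term gave no call (0.0913).

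The aspartate aminotransferases differed in sign. Got1, the cytosolic enzyme, lay between 10.08 and 10.66 in WT and between 9.96 and 10.37 in Rac2-/- arrays. The difference of 0.25 (SE 0.13) had an adjusted p of 0.615 in limma and 0.0418 with the array set as a term. Got1 was not called with this term once arrays 3 and 4 were averaged (0.145). Got2, the mitochondrial enzyme, differed by -0.23 (SE 0.45, adjusted p = 0.999). Acly, which cleaves exported citrate to acetyl-CoA in the cytosol, differed by -0.17 (SE 0.16), with Rac2-/- above WT arrays within both sets, and was not called with the array set as a term (adjusted p = 0.0642).

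**Figure D4:**
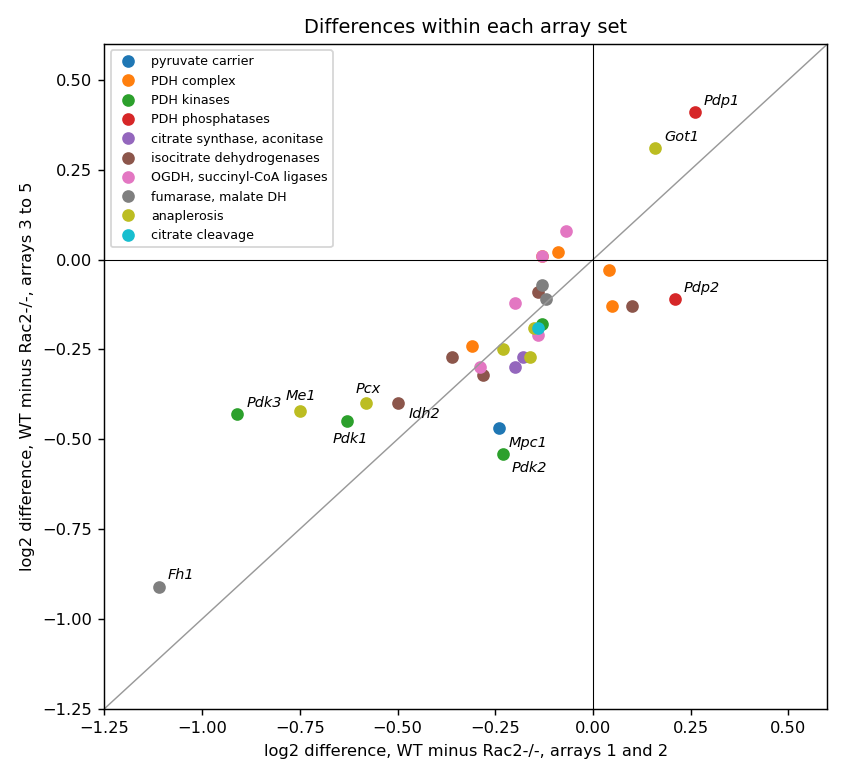
The log2 difference, WT minus Rac2-/-, of each of the 34 genes in arrays 1 and 2 (horizontal axis) against that in arrays 3 to 5 (vertical axis), coloured by step, with a line of equal differences. Most points lie in the lower left, where both sets are higher in Rac2-/- (24 genes), and Fh1 lies lowest on both axes at -1.11 and -0.91.

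Of 61 further genes of the pathway, taken from lists, 56 were measured and 54 tested. Of these 54, 34 had higher means in Rac2-/- with a median difference of -0.07. In limma 3 were called higher in Rac2-/- and 1 higher in WT, against 0.795% and 1.11% of all features. With the block 8 and 2 were called, against 3.32% and 3.03% of all features. Succinate dehydrogenase, the enzyme that joins the cycle to the respiratory chain, was not among the called genes. Its subunits Sdha, Sdhb, Sdhc and Sdhd differed by -0.09 (SE 0.13), 0.06 (SE 0.13), -0.03 (SE 0.08) and -0.06 (SE 0.27).

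Nnt, the transhydrogenase that makes mitochondrial NADPH from NADH, was 8.41, 8.35, 8.28, 8.18 and 8.48 in WT and 9.56, 9.67, 9.69, 9.69 and 8.98 in Rac2-/- arrays. The groups did not overlap, and the difference of -1.18 (SE 0.14) had an adjusted p of 0.00288 in limma, and passed in all 10 fits that left out an array and with arrays 3 and 4 averaged (0.0459). With these arrays averaged it did not pass with the block (0.0536) and passed with the array set as a term (0.0145). C57BL/6J mice are known to carry a deletion within Nnt. The labels give C57BL alone and the methods C57BL/6J with littermate controls, and the Nnt allele of the mice behind each array was not tested.

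Glul, the glutamine synthetase, differed by -0.63 (SE 0.12, adjusted p = 0.0287) and Ldhb, a subunit of lactate dehydrogenase, by -1.38 (SE 0.22, adjusted p = 0.0122). Neither passed in limma with arrays 3 and 4 averaged (0.174 and 0.102). With these averaged, Glul passed with the block (0.0415) and Ldhb did not (0.0683). Both passed with the array set as a term (0.0157 and 0.0268). Slc25a22, a mitochondrial glutamate carrier, was higher in WT, with a difference of 0.94 (SE 0.15, adjusted p = 0.0132). With arrays 3 and 4 averaged it did not pass in limma (0.102) or with the block (0.0795), and passed with the array set as a term (0.0269).

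With the block the calls also took in Pdpr, the regulator of the pyruvate dehydrogenase phosphatase, at -0.40 (adjusted p = 0.0295). It further took in 4 genes of fuel entry and of regulation. Acss1, a mitochondrial acetyl-CoA synthetase, differed by -0.64 (0.0209) and Pccb, a subunit of propionyl-CoA carboxylase, by -0.83 (0.00783). Bckdha, a subunit of the branched-chain ketoacid dehydrogenase, differed by -0.46 (0.0249), and Hif1a, the oxygen-regulated factor known to induce Pdk1, by -0.71 (0.0378). Asns, the asparagine synthetase, was higher in WT by 1.23 (0.0399). Once arrays 3 and 4 were averaged, the block kept the call of Pccb (0.0367) and lost those of the other 5 (adjusted p from 0.0784 for Bckdha to 0.118 for Hif1a). Acod1, which makes itaconate from an intermediate of the cycle and was picked after its values were seen, differed by 0.44 (SE 0.13) with an adjusted p of 0.18 in limma and 0.0597 with the block.

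Some markers of other cells and states differed between the genotypes or in single arrays. The mean of 8 mast cell and basophil markers was 5.31 to 5.96 in WT and 5.05 to 5.21 in Rac2-/- arrays. The 6 of them that were tested all had higher means in WT, with a median difference of 0.66. Of these, Cpa3 was 4.11 to 6.05 in WT and 3.87 to 4.42 in Rac2-/- arrays. It passed the filter (at least 4.73) through WT arrays alone, so its direction carries no information, and the median includes it. The 1 called was Hdc (0.49, adjusted p = 0.0185 in limma). Of the defining markers Ms4a2 lay at 3.68 to 4.25 and Fcer1a at 3.74 to 4.25 in WT, below the filter. The mean of 6 dendritic cell markers was 5.74 to 6.02 in WT and 5.96 to 6.33 in Rac2-/- arrays. The median of their differences was 0.01 with 3 higher in each genotype, and the 1 called marker was Itgax (-1.95, adjusted p = 0.00424), which macrophages also express. The mean of 9 neutrophil markers was 6.67 to 8.86 in WT and 6.48 to 8.29 in Rac2-/- arrays, ranges that overlapped. The mean of 11 handling and heat shock genes was 8.76 to 8.81 in WT and 8.19 to 8.77 in Rac2-/- arrays. In limma Ier3 was called higher in Rac2-/- (-0.71, adjusted p = 0.0264) and Hspa1a higher in WT (0.55, 0.0189). Of 7 fibroblast and stroma markers tested, 5 had higher means in WT and 2 in Rac2-/-. None was called in limma, and with the block Dcn (1.21, adjusted p = 0.0173) and Pdgfrb (-0.62, 0.0302) were called. The part of all these markers in the differences of the 34 genes was not tested.

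The mean of 14 proliferation genes was 10.01 in Rac2-/- array 5 and 7.01 to 7.80 in the other 9 arrays, with Mki67 at 10.51 and at 5.85 to 7.82. Without this array the median difference of the 34 genes was -0.18, and Fh1 differed by -1.08 with an adjusted p of 0.0484. Idh2 then differed by -0.45 and was no longer called (adjusted p = 0.0799).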

How the data were processed

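Gene expression was measured on 10 arrays, 5 of WT and 5 of Rac2-/- BMDMs, with groups and numbers taken from the labels. The authors deposited log2 values made with RMA for 34760 features. Their log base, which is unstated, was read as 2 from the range of 1.69 to 13.7. The methods name a filter to 27031 genes, ComBat and limma. The deposited values were not filtered, and the authors' tool versions are not given in the sources used here. In the methods the cells are described at day 7, with a higher share of Mac1-positive cells than the labels give at day 8.

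Gene names came from the platform annotation, updated through RefSeq (GRCm38.p6). A gene was read from features with its symbol alone, of which 21640 exist, 1321 features having several symbols and 11799 being unlisted. Where a gene had several features, that with the highest mean was used.

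Features were ranked by their fourth-highest value and the top 27031 (at least 4.73) were tested with limma 3.58.1 under R 4.3.3, using lmFit and eBayes without a block. P-values were adjusted by Benjamini-Hochberg over these features, and 0.05 was the threshold. The fit was tested on simulated data. After subtraction of group means, arrays with the same number correlated at 0.493 to 0.716, all over 0.1. The fit with the numbers as pairs, the replicate block, is therefore given beside the main fit, which did not pair the arrays. This pairing comes from the values alone, and 5 of 10 arrays correlated best with their own number. Arrays with the same number also share an array set, and the sets stood apart in both groups. Passing 0.1 therefore cannot tell a pairing of the numbers from the array sets.

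Alternatives were the filter, the block, a term for the array sets, ComBat on them, each set alone, a trended and robust variance, array weights, median centring, quantile normalization, averaging a gene's features, the methods' t-test and leaving out each array. Averaging arrays 3 and 4 was added after seeing the data. The genes and lists were chosen with earlier results of these data known. Values in every array are given for genes called with or without the block, for all Pdk genes and for the 6 smallest adjusted p-values. Of the further pathway genes, those called in either fit are named.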

Additional observations from a re-analysis of the deposited data

Results flagged for a closer look

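An array far from the others of its group, by the gap to its nearest neighbour over the range of the group, was seen in 3 of the 68 groups of 5 arrays examined for the 34 genes, where chance gives about 1 in 20. Pcx was 6.06 in WT array 2 and 6.42 to 6.54 in the other WT arrays. Me2 was 8.38 in WT array 1 and 8.54 to 8.58 in the other WT arrays. Me2 was also 9.00 in Rac2-/- array 5, the array with the high proliferation genes, and 8.58 to 8.67 in the other Rac2-/- arrays.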

How the results depend on the processing

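The number of the 34 genes called, 2 over all 10 arrays, depended on how the spread between arrays was modelled. Percentages in brackets are the share of all features called in either direction, 1.9% over all 10 arrays. The number was 0 with no filter (1.28%), 0 with a trended and robust variance (1.66%) and 1 with quantile normalization (1.98%). It was 7 with array weights (6.7%), 7 with the replicate block (6.35%), 15 with the array set as a term (9.34%) and 19 with ComBat (16.2%). It was 0 in arrays 1 and 2 alone (0.0074%) and 4 in arrays 3 to 5 alone (5.5%). With arrays 3 and 4 averaged it was 0 (0.363%), and 1 with the block as well (1.18%). It ranged from 0 to 2 when an array was left out (0.906% to 2.31%). It was 1 without WT array 1, 2 without Rac2-/- array 5 and 0 without any other. The methods' t-test, given there for statistics in general, called 2 after Benjamini-Hochberg adjustment (1.65%). These were Dlst (0.00829) and Idh2 (0.0494) but not Fh1 (0.0973). Without adjustment the t-test called 10 (10.9%).

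Of all features 514 were called, with 1716 under the replicate block, 2524 with the array set as a term, 4386 with ComBat, 1811 with array weights, 2 in arrays 1 and 2 alone and 1487 in arrays 3 to 5 alone. With arrays 3 and 4 averaged there were 98, with the set term 1019 and with the block 320. Leaving out an array gave 245 to 625. The causes were not tested.

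The direction of the median difference was kept under all alternatives, and 24 to 32 of the 34 genes had higher means in Rac2-/-. Of the alternatives for the 11 genes with values by array, 32 gained the call and 32 lost it, and none turned the direction. With 5 arrays a group, a gene not called is not shown to be equal between the genotypes, and features near background have compressed differences.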
